A study of Mus musculus with 4 samples.

Results

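Neutrophils made up 94 of the 39715 cell barcodes that passed quality filters in 4 single-cell RNA libraries of the mouse main olfactory epithelium, the sheet at the back of the nasal cavity that holds the odour-sensing neurons. A barcode was counted as a neutrophil when S100a8 and S100a9 together had at least 20 UMIs (unique molecular identifiers, 1 per captured RNA molecule), C1qa at most 1, Omp at most 15 and Cyp2g1 at most 30. C1qa marks macrophages, Omp mature olfactory neurons and Cyp2g1 the sustentacular cells that support them. A passing barcode had at least 500 detected genes and at most 10% of its UMIs in mitochondrial genes. The tissue came from wild-type C57BL/6J mice of 3 months, with 2 libraries from females and 2 from males. Cells were freed with papain, strained and loaded without a sort on the 10x Chromium 5' v2 system. The labels do not say how many animals gave each library, so the p-values below measure only the spread between these libraries, which may be technical. The tissue markers were where the labels place them, with 17301 barcodes at 20 or more Omp UMIs and 6234 sustentacular barcodes above 30 Cyp2g1 UMIs.

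Neutrophils are short-lived granulocytes that are made in the bone marrow, circulate in blood and enter tissue at sites of injury or infection. While they mature in the marrow they make their granules in a fixed order: primary granules with myeloperoxidase and elastase, then specific granules with lactoferrin and cathelicidin, then gelatinase granules. S100A8 and S100A9 form calprotectin, a metal-binding antimicrobial protein that fills their cytosol. Mature cells rely on the G-CSF receptor (Csf3r) and follow chemokines through CXCR2.

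Because the rule reads counts of these same cells, S100a8 and S100a9 levels and every comparison of the neutrophils with other barcodes are given as descriptions, with no test result. In all, 111 barcodes carried at least 20 S100a8 and S100a9 UMIs. Of these, 1 had under 500 genes and 110 passed the filters. Omp was above its limit in 10 of the passing ones, Cyp2g1 in 7 and C1qa in none. These limits were counted separately and overlap, and 94 members remained. Just outside the threshold lay 10 barcodes with 10 to 19 UMIs, and just inside it 2 members with 20 to 29. Most passing barcodes, 38908, had none, and members ranged from 20 to 1987.

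The neutrophil barcodes were shallow. Their median was 3208 UMIs, against 5330.5 in 434 macrophages (at least 10 UMIs of C1qa, C1qb and C1qc together) and 9108 in all other passing barcodes. The 4 libraries had 100725429 to 111577458 UMIs each. No barcode sequence was shared between members of different libraries, although 126 to 149 passing barcodes were shared by each pair of libraries. A doublet caller marked 2 of the 94 members, both in female library 2. In addition, 5 members held over 10000 UMIs, 1 in female library 1 and 4 in female library 2. The one in female 1 carried 26 UMIs of Stmn2 and 25 of Gap43, genes of immature neurons, and one in female 2 with 15668 UMIs carried 54 of Stmn2. Another in female 2, with 24984 UMIs, carried 49 of Krt5, the basal-cell keratin. A further one there, with 11769 UMIs, had 415 of the epithelial lectin Reg3g, 49 of Cd74 and none of Csf3r, Cxcr2 or Il1r2. The last, in female 2 with 10185 UMIs, carried no UMI of Stmn2, Gap43, Krt5 or Cd74. It had 1411 S100a8 and S100a9 UMIs and 1236 of the specific granule genes Ngp, Camp and Ltf. Values without the deep barcodes leave out this member too. The 5 held 17.8% of the neutrophil UMIs of female 1 and 56.8% of those of female 2, 62606 of 110144. For many levels of the main genes, the shares and several counts of genes, the value without them is given too.

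Neutrophils were a small share of every library. Female library 1 held 18 of 10220 passing barcodes, or 0.176% (exact Clopper-Pearson 95% interval 0.104 to 0.278%). Female library 2 held 19 of 9763, or 0.195% (0.117 to 0.304%). Male library 1 held 22 of 9663, or 0.228% (0.143 to 0.344%), and male library 2 held 35 of 10069, or 0.348% (0.242 to 0.483%). These intervals cover counting error only. Both male libraries lay above both female ones, but the female 2 and male 1 intervals overlapped broadly. The mean was 0.185% ± 0.0131 in females and 0.288% ± 0.0848 in males (SD, n = 2 each), with p = 0.333 in an exact two-sided permutation test, the smallest p that 2 against 2 allows (0.583 after Benjamini-Hochberg adjustment over 7 measures). Neutrophils per macrophage followed the same order, at 0.153, 0.170, 0.224 and 0.330. The difference of 0.102 percentage points between the sexes was 0.0423 without male 2 and 0.162 without male 1. Without the 5 deep barcodes the female shares were 0.166 and 0.154%, and the difference was 0.128 percentage points.

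**Figure D1:**
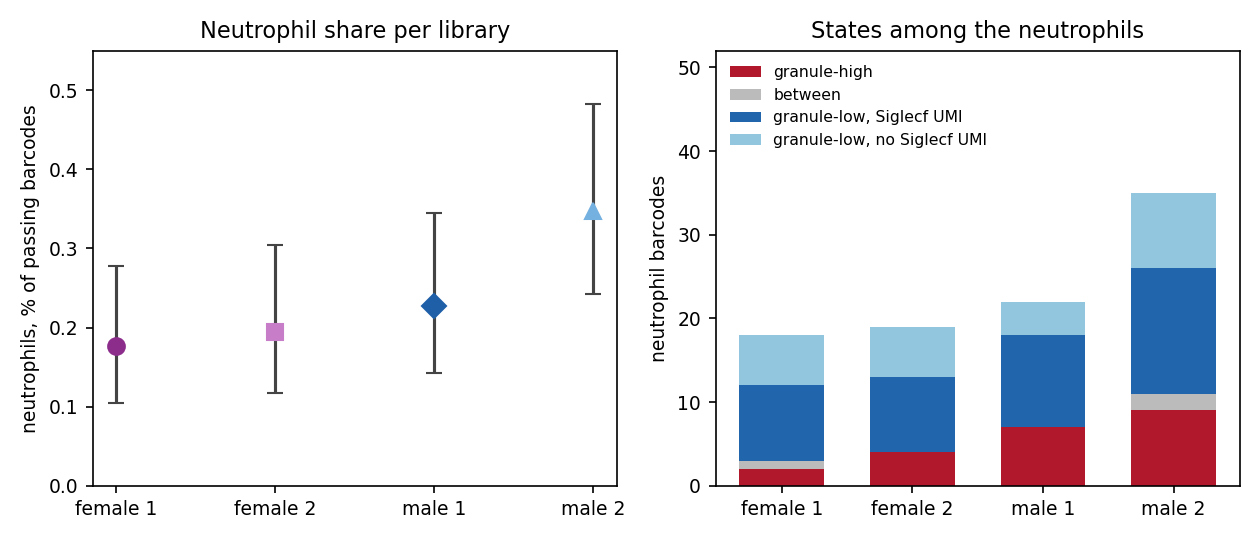
Left, neutrophils as a percentage of passing barcodes in each library, with exact 95% intervals as bars. Right, neutrophil barcodes by state, stacked, as defined further on: granule-high, between, and granule-low with or without a Siglecf UMI. Both male libraries sit above both female ones, and granule-low barcodes are the majority in every library.

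To describe expression, the UMIs of the members of a library were summed and each gene was given as CPM, its count after that sum is scaled to the same fixed total in every library and class. A gene was counted as higher where it was at least 4-fold above the other barcodes in all 4 libraries, with at least 10 member UMIs in each. By this count 247 of 908 genes that reached the minimum were higher than in the rest of the tissue (27.2%). Since the minimum is set on the members, it favours genes that they express, and the median log2 fold of these 908 genes was 0.62. In the other direction 100 of 1211 genes were lower (8.26%), and 209 were when female 2 was left out. Without the 5 barcodes over 10000 UMIs it was 155. Below, a value of female 2 in parentheses after a set of levels is the one without its 4 deep barcodes. In female 1 the genes given here were at most 1.22 times as high without its deep barcode.

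The cells carried the marker genes of mature neutrophils. Retnlg, which encodes a resistin-like secreted protein of granulocytes, was at 4404 and 3786 CPM in the female libraries (8414 CPM in female 2) and 11995 and 6768 CPM in the male ones. The rest of the tissue had 0.163 to 0.492 CPM of it. The sexes did not overlap with the deep barcodes and overlapped without them. S100a9 was at 35378, 34482, 94478 and 78871 CPM in female 1, female 2, male 1 and male 2, the order used for every set of 4 values from here on (57175 CPM in female 2). Both male sums lay above both female ones, with and without the deep barcodes. Cxcr2, the receptor for the chemokines that draw neutrophils into tissue, was at 470, 200, 389 and 455 CPM (400 CPM in female 2), against 0.0385 to 0.171 CPM in the rest. Il1r2, a decoy receptor that binds interleukin-1 without signalling, was at 1879, 1099, 1493 and 1593 CPM, so the sexes overlapped. Without the deep barcodes it was at 2250 and 1767 CPM in the female libraries, both above the male ones.

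Of the 20 other genes of neutrophil identity, 12 reached the minimum. All 12 were at least 4-fold higher than in the rest, beside 27.2% of all 908 genes that reached it. Among the 12 were Csf3r, Slpi, Clec4d, Trem1 and Wfdc21. Trem1, a receptor that amplifies inflammatory signalling, was at 514, 263, 790 and 634 CPM (463 CPM in female 2) against at most 0.347 CPM in the rest. Acod1, whose enzyme makes itaconate in activated myeloid cells, was at 2275, 881, 979 and 943 CPM (1788 CPM in female 2), so that female 1 stood above the other 3 libraries. Clec4e, a C-type lectin that senses mycobacterial and damage-associated glycolipids, was at 1776, 617, 1179 and 1129 CPM (1220 CPM in female 2). The 15 genes with the largest folds also held Il1f9, Tarm1, Ngp and Siglecf.

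Detection per cell showed the same receptors in most members. Cxcr2 had a UMI in 68.1% of neutrophils and in 0.230% of macrophages, and in none of 17301 mature neurons. After each cell was thinned to 1000 UMIs, to remove the difference in depth, it was detected in 36.2% of neutrophils and in no macrophage. Il1r2 was detected in 93.6% of neutrophils and 4.38% of macrophages. Csf3r was detected in 68.1% and 18.4%. Retnlg, although high in the sums, had a UMI in only 48.9% of members, and in no macrophage.

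**Figure D2:**
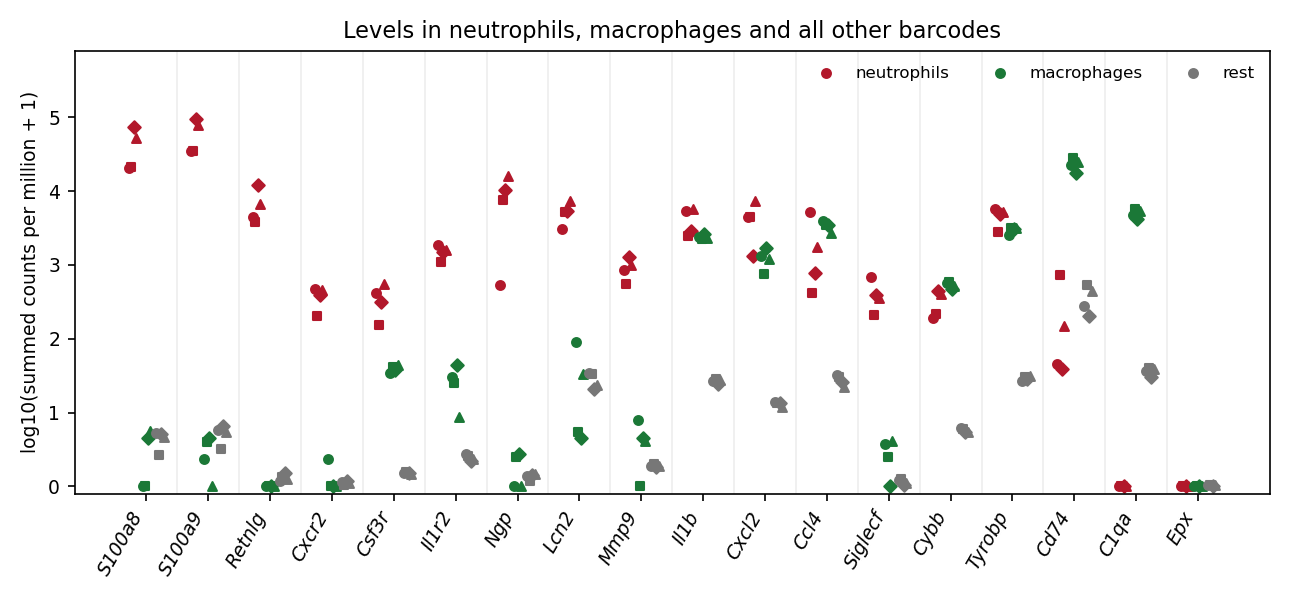
Levels as log10 of CPM plus 1 in the summed neutrophils, macrophages and rest of each library (circle female 1, square female 2, diamond male 1, triangle male 2). Retnlg and Cxcr2 of neutrophils lie above both other classes in every library, while Il1b of neutrophils (2460 to 5704 CPM) overlaps that of macrophages.

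Of the granule genes, the later-made groups were present. No gene of the primary granules reached the minimum, and Mpo, Elane and Ctsg had no UMI in any member. All 5 specific granule genes and all 5 gelatinase granule genes that reached it were higher than in the rest, beside 27.2% of all 908 genes. Lcn2, the iron-siderophore-binding lipocalin, was at 3053, 5266, 5320 and 7345 CPM (2524 CPM in female 2), and Mmp9, which encodes gelatinase B, at 851, 545, 1280 and 999 CPM (968 CPM in female 2). Cell-cycle genes were near background: Top2a, Cdk1, Ccnb1 and Rrm2 had no UMI. The other 8 proliferation genes did not reach the minimum.

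Effector genes were high as groups. All 8 cytokine and chemokine genes, 11 of 11 trafficking receptors, 6 of 6 NADPH oxidase genes and 10 of 10 pattern recognition genes that reached the minimum were at least 4-fold higher than in the rest. Of all 908 genes that reached it 27.2% were, and the minimum favours genes that the members express. Il1b, the precursor of interleukin-1 beta, was at 5373, 2460, 2911 and 5704 CPM (5175 CPM in female 2) against 23.1 to 27.1 CPM. Cxcl2, a CXCR2 ligand through which neutrophils recruit more of their kind, was at 4463, 4385, 1305 and 7215 CPM (7973 CPM in female 2), a wide spread with the lowest value in male 1. Il1rn, the interleukin-1 receptor antagonist, was at 1850, 663, 1079 and 520 CPM (1325 CPM in female 2) against at most 1.92 CPM in the rest. Ncf1, a cytosolic subunit of the oxidase that makes superoxide, was at 1424, 472, 765 and 861 CPM (862 CPM in female 2). Survival genes followed the same pattern, with 6 of 6 higher, and Mcl1, which neutrophils need to avoid apoptosis, at 1894, 1244, 2070 and 2251 CPM (1956 CPM in female 2). Of 6 transcription factor genes that reached the minimum 3 were higher, among them Cebpb, a C/EBP factor of emergency granulopoiesis, at 3274, 1888, 3174 and 2990 CPM (2924 CPM in female 2) against 221 to 261 CPM.

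Other groups were mixed. Of the interferon-response genes 4 reached the minimum and 2 were 4-fold higher, and Ifit3 had UMIs only in female 2. All 4 were higher by any amount in every library, beside 500 of all 908 genes (55.1%). The interferon list summed to 2842 to 3934 CPM against 645 to 831 CPM in the rest. Among 11 immediate early genes 1 was higher. Dissociation is known to induce this group, and Fos was at 367, 2342, 1292 and 1129 CPM in neutrophils against 1574 to 1969 CPM in the rest, so it overlapped. It was at 989 CPM in female 2 without the deep barcodes, and then below the rest in all 4 libraries. Of the 65 oxidative phosphorylation genes with at least 10 UMIs expected in the members at the level of the rest, 54 were lower by any amount in every library and none was 4-fold lower. Of all 1211 such genes 790 were lower by any amount (65.2%). The share of mitochondrial UMIs had a median of 0.771% per member against 2.11% in the rest. Genes lowest relative to the rest were those of neurons and supporting cells, such as Omp, Cyp2g1, Cyp2a5, Sec14l3 and Muc2, of which Omp and Cyp2g1 were used by the rule.

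Most markers of other blood cells had few or no UMIs, with exceptions in the monocyte list. In the list for eosinophils, basophils and mast cells, Epx, Prg2, Ccr3, Mcpt8, Cpa3, Ms4a2 and Fcer1a had no UMI in any member, and Siglecf was the only one of 8 present. Of the macrophage list 6 of 8 were at 0, including C1qa, which the rule limits. Of the T and NK list 6 of 7 were at 0, and of the B list 5 of 6. These counts were not set beside the share of all genes at 0. The T and NK and B lists were also low in the rest, so their zeros do not show a level below it. The T and NK list summed to 0 to 27.2 CPM in members against 2.13 to 4.29 CPM in the rest. The B list summed to 25.1 to 54.5 CPM against 7.35 to 12.2 CPM. The monocyte list summed to 536 to 723 CPM against 2006 to 2227 CPM in macrophages and 146 to 176 CPM in the rest. In it F13a1 and Ms4a4c were at 0, but Csf1r had a UMI in 25 of 94 members. Ly6c2, also of this list, was at least 4-fold above macrophages in every library. Epithelial RNA was present: the sustentacular list summed to 772 to 2025 CPM and the secretory list to 764 to 4503 CPM, the highest being female 2. Basal and squamous markers were found only in female 2, at 1126 CPM.

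Set against macrophages, the other phagocytes of the tissue, 79 of 908 genes were at least 4-fold higher in neutrophils in every library (8.70%) and 84 of 970 lower (8.66%). Identity genes were higher for 11 of 12, and specific granule genes for 5 of 5. G0s2, an inhibitor of triglyceride lipase, was at 1615, 1961, 2020 and 3120 CPM (3702 CPM in female 2) in neutrophils and 0 to 3.53 CPM in macrophages. Hp, which encodes haptoglobin, was at 1042, 1126, 1644 and 1649 CPM against at most 3.11 CPM. Hdc, the enzyme that makes histamine, was at 881, 554, 1380 and 1154 CPM (884 CPM in female 2) against at most 15.6 CPM. Antigen presentation ran the other way. All 6 MHC class II genes were at least 4-fold lower in neutrophils. So were all 8 genes of the macrophage list, but C1qa is limited by the rule and C1qa, C1qb and C1qc define the macrophage class, so that only the other 5, such as Mrc1, Adgre1 and Cx3cr1, were not used to choose either class. Cd74, the class II chaperone, was at 44.0, 726, 37.6 and 146 CPM (568 CPM in female 2) against 17617 to 27751 CPM. The female 2 value with the deep barcodes includes 49 UMIs from its Reg3g-bearing barcode.

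Inflammatory genes were shared between both phagocytes. The 15 cytokine and chemokine genes summed to 8356 to 23194 CPM in neutrophils and 8665 to 10817 CPM in macrophages, which overlap. Il1b was at 2272 to 2633 CPM in macrophages, within the range of the neutrophil libraries, but below all 4 without the deep barcodes. Per cell, 84.0% of neutrophils and 65.9% of macrophages had an Il1b UMI, 74.5% and 52.2% after thinning, against 0.393% of mature neurons. Ccl4 was higher in macrophages than in 3 of the 4 neutrophil sums (5123, 418, 778 and 1739 CPM against 2724 to 3878 CPM). Of 78 cytosolic ribosomal genes with enough expected UMIs, 73 were lower by any amount in every library, against 455 of all 970 such genes (46.9%), with sums of 37831 to 63145 CPM against 87194 to 104584 CPM.

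Within the neutrophils, the genes of specific granules were concentrated in a minority. The summed UMIs of Ngp, Camp and Ltf were 0 in 60 of 94 members and at least 100 in 12. Ngp encodes neutrophilic granule protein, Camp the cathelicidin antimicrobial peptide and Ltf lactoferrin. All 3 lie on chromosome 9, at 110419747 to 110423012, 109847379 to 109849617 and 111019271 to 111042767 in GRCm38, and each is expressed during the myelocyte stage of the marrow, where C/EBP-epsilon drives specific granule genes. The bases just before their annotated starts are shown because the sum of these 3 genes is used to divide the members below. Factors of the C/EBP family bind a palindrome with the core TTGCNNAA, which was searched on either strand. Matches are in capitals, and the sequences are RefSeq's GRCm38.p6, 5′ to 3′ on each gene's own strand, at chr9:110419558-110419746 (plus), chr9:109849618-109849706 (minus) and chr9:111019042-111019270 (plus).
Ngp: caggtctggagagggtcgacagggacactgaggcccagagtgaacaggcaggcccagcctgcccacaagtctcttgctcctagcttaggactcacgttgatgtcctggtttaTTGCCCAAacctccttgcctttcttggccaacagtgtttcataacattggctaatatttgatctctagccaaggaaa
Camp: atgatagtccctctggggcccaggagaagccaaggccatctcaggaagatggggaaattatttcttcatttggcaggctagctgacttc
Ltf: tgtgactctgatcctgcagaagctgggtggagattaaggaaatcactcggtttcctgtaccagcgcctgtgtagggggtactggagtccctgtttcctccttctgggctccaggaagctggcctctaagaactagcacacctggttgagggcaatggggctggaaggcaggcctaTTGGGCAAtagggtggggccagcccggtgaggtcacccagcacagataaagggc
In the 250 bases before the RefSeq start, Ngp had 2 matches, TTGCCCAA at 138 to 131 bases and TTGGGCAA at 11 to 4 bases before it, the latter outside the stretch shown. Ltf had 1, TTGGGCAA at 75 to 68 bases, and Camp had none. The stretches shown end where the gene begins in the GENCODE annotation, so for Camp only 89 of the 250 bases lie before it. The Ngp match at 11 to 4 bases likewise lies inside the gene as GENCODE annotates it. Of 32851 promoter windows of that length 3142 held a match (9.56%). A match describes letters and is not a measured site.

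Members with at least 10 UMIs of the 3 genes were taken as granule-high and those with at most 2 as granule-low. This gave 22 granule-high, 69 granule-low and 3 between, a range of a count and not cell types. The granule-high numbered 2 of 18, 4 of 19, 7 of 22 and 9 of 35, or 11.1, 21.1, 31.8 and 25.7%. The mean was 16.1% ± 7.03 in females and 28.8% ± 4.32 in males (SD, n = 2), with an exact two-sided permutation p of 0.333 (adjusted 0.583). The difference of 12.7 percentage points was 7.71 without female 1. Without the deep barcodes 2 of 17 and 2 of 15 female members were granule-high, and the difference was 16.2 percentage points. Those left out in female 2 include the member with 10185 UMIs, of which 1236 were of the 3 genes. Since the split reads the same cells, the differences between the 2 sets are given without a test.

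Of 100 genes with enough UMIs, 6 were at least 4-fold higher in granule-high cells in every library (6.00%), and of 109, 5 were lower (4.59%). Without female 1, which gave only 2 granule-high cells, the counts were 14 and 18. Without the barcodes over 10000 UMIs only 1 gene was lower. Lcn2 was at 19086, 18084, 11775 and 17383 CPM in granule-high and 309, 1207, 1248 and 737 CPM in granule-low cells, and all 22 granule-high cells had a UMI. Without the deep barcodes female 2 had 10146 and 1721 CPM. Anxa1, a protein that limits leukocyte migration, was at 1406, 4002, 3568 and 4109 CPM against 91.0 to 275 CPM. For Anxa1 female 2 had 2867 against 256 CPM without the deep barcodes. Ly6c2, a surface antigen shared with monocytes, was at 1306, 378, 1265 and 1054 CPM against at most 40.9 CPM, and had no UMI in the granule-low cells of female 1 and male 2. Cd177, Wfdc21 and Retnlg completed the 6. Retnlg was at 29533, 8872, 26049 and 14854 CPM against 109, 2176, 3130 and 766 CPM. For Retnlg female 2 had 49404.5 against 4092.6 CPM without the deep barcodes. A Retnlg UMI was detected in 21 of 22 granule-high and 23 of 69 granule-low cells. Cell by cell, Lcn2 UMIs of granule-high cells ran from 64 to 126 in female 1, 12 to 236 in female 2, 15 to 112 in male 1 and 15 to 260 in male 2. In granule-low cells the highest counts were 6, 22, 16 and 18, so the ranges overlapped in 3 of the 4 libraries. Retnlg overlapped more, since single granule-low cells reached 93 UMIs in female 2 and 114 in male 1. Ly6g, the antigen used to sort mouse neutrophils, had a UMI in 16 of 22 granule-high but only 2 of 69 granule-low cells, and Mmp8, neutrophil collagenase, in 18 and 6.

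**Figure D3:**
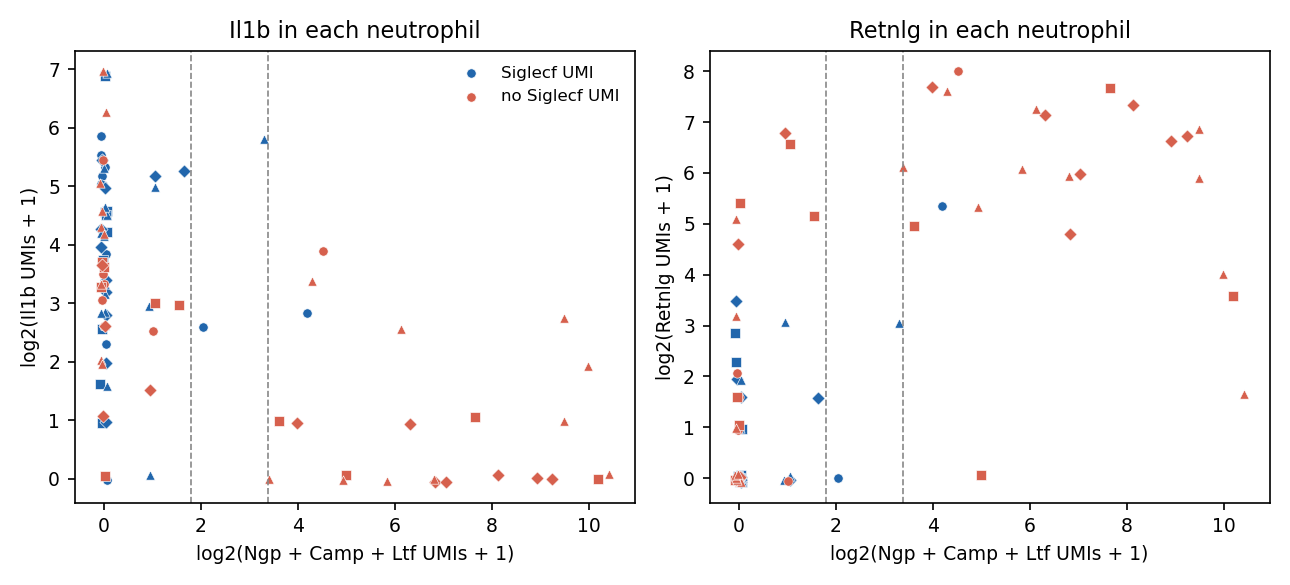
Each point is 1 neutrophil, placed by log2 of its summed Ngp, Camp and Ltf UMIs plus 1 and by log2 of its Il1b (left) or Retnlg (right) UMIs plus 1, with a small random shift. Colour marks a Siglecf UMI, marker shape the library (circle female 1, square female 2, diamond male 1, triangle male 2), and dashed lines the cut-offs of the 2 sets. Granule-high cells, right of both lines, have a median of 0.5 Il1b UMIs, and granule-low cells, left of both, 12.

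Il1b and Ccrl2 were higher in granule-low cells. Il1b was at 6207, 3216, 4706 and 9032 CPM there and at 2009, 75.5, 64.9 and 506 CPM in granule-high cells. It was detected in 66 of 69 against 11 of 22 cells, or 79.7% against 27.3% after thinning. Granule-low cells varied widely in it, up to 57, 117, 44 and 126 Il1b UMIs by library, with medians of 13, 11, 10 and 17. In granule-high cells the highest counts were 14 in female 1 and 1, 1 and 9 in the other libraries. Ccrl2, an atypical receptor that holds chemerin on the surface, was at 5843, 2104, 3622 and 3945 against 603, 227, 649 and 969 CPM. Bcl2a1b, a member of the anti-apoptotic A1 family whose copies are nearly identical so that reads may be split among them, was at 1930, 753, 1494 and 1503 against 0, 75.5, 130 and 42.1 CPM. Clec4n, the lectin Dectin-2, was at 1147, 789, 1903 and 1358 CPM against 100, 0, 64.9 and 42.1 CPM. Tnfaip2 and Apoe completed the 5 genes lower in granule-high cells. Csf1, the macrophage growth factor, had a UMI in 48 of 69 granule-low and 2 of 22 granule-high cells, and Cxcr4, the receptor for marrow homing, in 34 and 4. Few members of the survival and cytokine lists had enough UMIs in granule-low cells. By any amount in every library, 2 of 3 such survival genes (Bcl2a1b and Pim1) and 4 of 5 such cytokine genes (Il1b, Il1rn, Ccl3 and Ccl4) were lower in granule-high cells, against 55 of all 109 such genes (50.5%).

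Cybb, the catalytic subunit of the oxidase, was higher in granule-high cells, at 603, 831, 973 and 990 against 127, 23.9, 102 and 28.9 CPM. Without the deep barcodes female 2 had 221 against 46.5 CPM. Other genes overlapped between the 2 sets. Cxcr2 had a UMI in 68.2% of granule-high and 68.1% of granule-low cells. Cxcl2 overlapped, at 5023, 3851, 1784 and 7016 against 4624, 4554, 1003 and 7674 CPM, and without the deep barcodes female 2 had 0 against 8813 CPM. A few cells held much of it, for 1 granule-low cell of male 2 had 267 UMIs while the median there was 0.5. Ncf1, of the same oxidase, was at 1406, 415, 714 and 590 against 1438, 490, 798 and 1069 CPM. Its ranges overlapped, but within every library it was lower in granule-high cells.

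**Figure D4:**
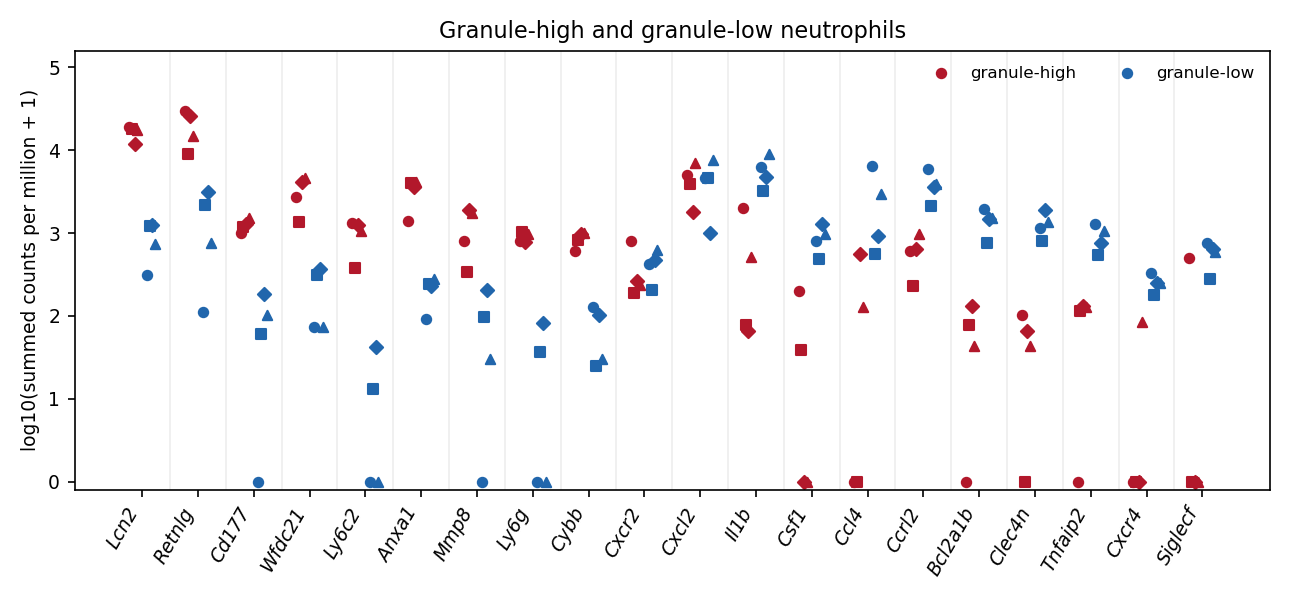
Levels as log10 of CPM plus 1 in the summed granule-high and granule-low neutrophils of each library (circle female 1, square female 2, diamond male 1, triangle male 2). Lcn2, Retnlg and Ly6c2 are higher in the granule-high sums of all 4 libraries, and Il1b, Ccrl2 and Bcl2a1b are lower.

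Ribosomal transcripts also differed. Their share of UMIs was 2.12, 3.71, 2.12 and 2.19% in granule-high and 5.53, 7.14, 5.65 and 4.91% in granule-low cells, and 12 of the 13 genes with enough expected UMIs were lower by any amount in every library, beside the 50.5% given above. S100a8 and S100a9 made up 19.4, 9.77, 29.9 and 22.4% of granule-high UMIs, against 3.23 to 8.4%, which lowers every other share. With 7 abundant neutrophil transcripts set aside, the ribosomal share was still 2.81 to 4.53% against 5.25 to 7.48%, with no overlap. Granule-high cells were also deeper, with a median of 4732 UMIs against 2955, and had a lower median mitochondrial share, 0.270% against 0.925%. The part of these depths in the gene differences was not tested beyond the thinned shares. Of the granule-high cells in female 2, 1 was the Reg3g-bearing barcode, which counted as granule-high by 31 Ltf UMIs. Without it, Ngp of that set was 55710 rather than 30957 CPM, Retnlg 15966 rather than 8872 CPM and Cd74 0 rather than 1850 CPM.

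Siglecf marked part of the granule-low cells. It encodes a sialic-acid-binding lectin best known from eosinophils, which mouse neutrophils can also carry in tissue. It had a UMI in 47 of 94 members, or 11, 9, 11 and 16 by library, against 1.15% of macrophages (25.5% against 0.242% after thinning). Its level was 690, 209, 389 and 349 CPM (316 CPM in female 2), highest in female 1 and lowest in female 2. The most in any 1 member was 8 UMIs, so a cell without a UMI may still have expressed it. Of the granule-low cells 44 of 69 had a UMI, and of the granule-high cells 1 of 22. After thinning to 1000 UMIs the counts were 28 and 1, so the difference remained at equal depth. As given above, the 7 other eosinophil, basophil and mast cell genes were at 0 in the same cells.

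A division of granule-low cells by Siglecf was chosen after its values had been seen and depends on depth, since Siglecf-detected cells had a median of 3356 UMIs and the others 2379. None of 486 genes was 4-fold higher in the detected cells in every library (0%), and 1 of 288 was lower (0.347%). That gene was Slpi, an inhibitor of neutrophil elastase, at 63.0, 0, 80.0 and 41.6 CPM against 474, 2331, 969 and 1611 CPM. Cxcr4 had a UMI in 15 of 44 detected and 19 of 25 other cells, or 13.6% and 56% after thinning, and Retnlg in 10 and 13. In both genes the deeper set had the lower share. The median mitochondrial share was 1.09% in detected and 0.364% in other cells. Set against the Siglecf-detected cells alone, granule-high cells were at least 4-fold higher in 8 of 100 genes (8.0%) and lower in 8 of 121 (6.61%). Pglyrp1, a peptidoglycan-binding granule protein, was at 3817, 2190, 4120 and 3308 CPM in granule-high and 346, 284, 373 and 665 CPM in Siglecf-detected cells. Among the 8 lower genes were Il1b, Atf3, a stress-induced transcription factor, Pim1, a survival kinase, and Tgm2, transglutaminase 2.

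The sexes were then compared within the neutrophils, the one labelled contrast and one that the rule did not use. UMIs summed per library were tested with edgeR's quasi-likelihood test and Benjamini-Hochberg adjustment. The labels were checked first on Y-linked genes: Eif2s3y had 0, 0, 7 and 13 member UMIs, Ddx3y 0, 0, 4 and 4, and Uty 0, 0, 1 and 1. Kdm5d had none in any member. Of 1690 genes tested, 3 were higher in males (0.178%) and 19 lower (1.12%) at an adjusted p under 0.05, and 231 had an unadjusted p under 0.05. The count of 22 moved with each library left out, to 374 without female 1, 87 without female 2, 41 without male 2 and 0 without male 1 (137 at an unadjusted p under 0.05).

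Fpr1, the receptor for bacterial formyl peptides, rose in male sums from 271 and 104 to 1174 and 1215 normalised CPM. The log2 fold change was 2.72 ± 0.45 (SE), with an edgeR adjusted p of 0.0176. Mmp8 rose from 144 and 220 to 1209 and 1032 (2.58, SE 0.39, adjusted p = 0.0152). Wfdc21, a small secreted protein with a WAP domain, rose from 560 and 803 to 2524 and 2570 (1.89, SE 0.36, adjusted p = 0.0326). In all 3 genes both male libraries were above both female ones. All 3 were expressed mainly by granule-high cells, which held 88.2% of Fpr1, 83.2% of Mmp8 and 85.7% of Wfdc21 UMIs. Granule-high cells gave 14.6 and 24.0% of the female neutrophil UMIs and 38.7 and 38.6% of the male ones. When granule-low cells alone were compared, no gene was higher in males and 19 were lower. That set kept the deep female barcodes of 12121, 15668 and 24984 UMIs, of which the first 2 carried 26 and 54 Stmn2 UMIs. The 19 genes were not tested without these barcodes. Wfdc21 was at a log2 fold change of -0.25 (edgeR adjusted p = 0.94). Granule-low cells held few UMIs of these 3 genes, and Mmp8 had a UMI in only 6 of 69. This comparison therefore cannot decide whether the 3 genes differ between the sexes within granule-low cells.

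The 19 genes lower in males were Olfm4, Dpysl3, Trim66, Stmn2, Tubb2b, Gap43, Jup, Stmn1, Arhgdig, Stmn3, Tuba1a, Map1b, Mgst3, Selenow, Ctsl, Ell3, Plxnb2, Uchl1 and Atf5. Several of them, among them Stmn2, Gap43 and Map1b, are known from growing neurons. Stmn2 was at 578 and 828 normalised CPM in females and 17.5 and 43.0 in males (log2 fold change -4.36, edgeR adjusted p = 0.00672). For 18 of the 19 genes over 50% of female UMIs came from the 5 barcodes above 10000 UMIs. These barcodes held 41.9% of female neutrophil UMIs but 77.8% of the female UMIs of the 19 genes. Without them 0 of 1124 genes passed the edgeR threshold and 108 had an unadjusted p under 0.05, the lowest adjusted p being 0.0883. DESeq2, run on all members, called 14. The log2 fold changes without them were 2.21 for Fpr1 (adjusted p = 0.0883), 1.81 for Mmp8 (0.246) and 1.61 for Wfdc21 (0.116), all in the same direction.

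Olfm4, a glycoprotein of a subset of neutrophils' specific granules, was the exception among the lower genes. Its 38 UMIs came from 2 barcodes, 24 UMIs from 1 in female 1 and 14 from 1 in female 2, both granule-high, and the male sums had none. The female mean was 239.7 CPM, at least 16.2-fold above 3 UMIs over both male sums (14.8 CPM). With 1 cell in each female library this says nothing of how common such cells were in either sex.

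Most tested neutrophil genes had a positive sign. All 19 tested identity genes had a positive log2 fold change, with a median of 0.87 and 2 past the threshold, and so did 9 of 9 specific granule genes (median 1.37, 1 past it). With no TMM scaling, which moved the median of all genes to -0.27, 17 of 19 and 9 of 9 were positive, beside 571 of all 1690 genes. With TMM, 813 of all 1690 genes were positive and the median was -0.03. Without the 5 deep barcodes the counts were 12 of 18 (median 0.45) and 9 of 9 (median 1.81), beside 571 of all 1124 genes. Among granule-low cells alone they were 10 of 13 (0.40) and 2 of 2 (0.26), beside 579 of all 1202 genes. S100a8 and S100a9 were used by the rule. They were among the 1690 genes tested, but no test result is given for them for this reason. Retnlg did not pass the threshold, at 1.25 (SE 0.42, edgeR adjusted p = 0.22). Il1b was at 0.20 (SE 0.45), Cxcl2 at -0.04 (SE 0.60) and Siglecf at -0.16 (SE 0.47), with edgeR adjusted p of 0.87, 0.99 and 0.90.

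**Figure D5:**
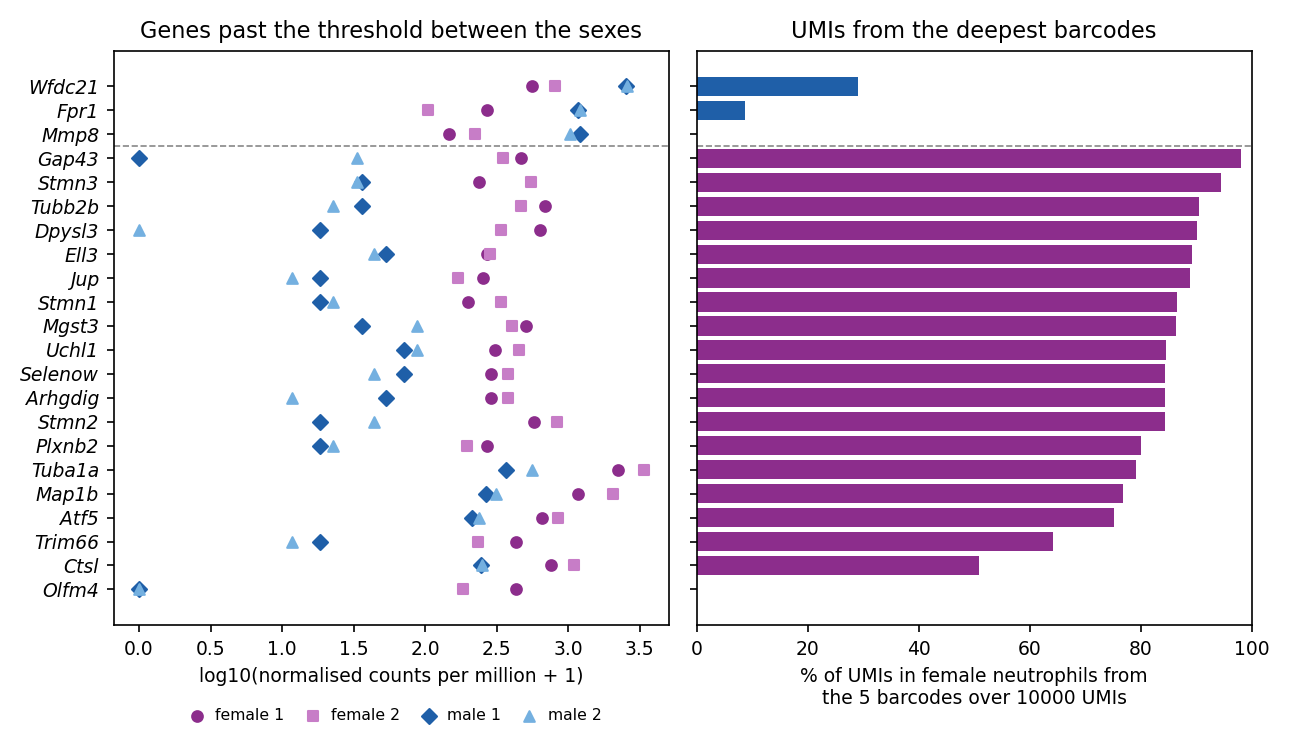
Left, log10 of normalised CPM plus 1 of the 22 genes past the threshold in the neutrophil sums of the 4 libraries. Right, the percentage of each gene's female neutrophil UMIs that came from the 5 barcodes over 10000 UMIs; genes below the dashed line were lower in males. Fpr1, Mmp8 and Wfdc21 are higher in both male sums, and among the lower genes Olfm4 alone drew none of its female UMIs from the deep barcodes.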

How the data were processed

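For each of the 4 libraries the authors deposited unnormalised UMI counts in a gene by barcode matrix, made with Cell Ranger 5.0.1 on mm10, per the submitters' processing notes. The matrix headers name version 6.0.2, per the file headers. The members and gene lists used here were chosen with earlier results of these data known.

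Filters and the rule for members are given in the report. Counts were read with Python 3.11.15 (numpy 2.4.6, scipy 1.17.1) and summed per library and class. Doublets were scored per library with Scrublet in scanpy 1.11.5. Marked members were kept, and left out in an alternative. Sums of the 2 female and 2 male libraries were tested with edgeR 4.0.16 in R 4.3.3 (TMM, filterByExpr, quasi-likelihood test, Benjamini-Hochberg at 0.05), with DESeq2 1.42.0 as an alternative. Library shares were compared by exact permutation. The edgeR step was tested on simulated data.

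Named genes were examples from the lists, the 15 largest and 10 smallest folds that held in every library, and the 10 largest sex differences in each direction. The Siglecf division, the granule-low comparison and the limits on deep barcodes and receptor UMIs were added after the data had been seen. The other alternatives changed the filters, the member rule, the fold, the granule cut-offs and the scaling, or left out 1 library. Promoter bases are from RefSeq (GRCm38.p6), gene positions from the GENCODE annotation of GRCm38. Figures were drawn with matplotlib 3.10.9.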

Additional observations from a re-analysis of the deposited data

How the results depend on the processing

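The male minus female differences in neutrophil share (0.102 percentage points) and granule-high share (12.7) kept their sign in every alternative, at 0.0713 to 0.128 and 8.96 to 17.2, and at 0.0423 to 0.162 and 7.71 to 17.7 with 1 library left out. The 247 genes higher than in the rest became 450 with a minimum of 3 UMIs and 252 to 305 with 1 library left out. The 100 lower genes became 323 at 2-fold, 14 at 8-fold, 156 with Omp and Cyp2g1 at most 2, 155 without the barcodes over 10000 UMIs (a limit chosen after the data were seen), and 105 to 209 with 1 library left out. Between granule-high and granule-low cells, 6 higher genes became 12 at 2-fold and 6 to 14 with 1 library left out. The 5 lower ones became 15 at 2-fold, 1 with cut-offs of 20 and 0, 2 with Omp and Cyp2g1 at most 2, 2 where members needed a receptor UMI, 1 without barcodes over 10000 UMIs, and 5 to 18 with 1 library left out. The 22 sex-different genes became 0 without barcodes over 10000 UMIs, 0 with Omp and Cyp2g1 at most 2 (edgeR, 62 at an unadjusted p under 0.05), 0 at 50 or more S100a8 and S100a9 UMIs (141) and 0 without high doublet scores (144). They became 9 at 10 or more S100a8 and S100a9 UMIs, 127 with no filter on low counts, 14 with DESeq2, and 0 to 374 with 1 library left out, where the lone library of a sex is assumed to vary like the other sex. Apart from the limits on depth and the omission of libraries, whose effect is given in the report, the cause was not tested. A fit with replicate number as a block called 66 genes (15 higher and 51 lower in males), but same-numbered libraries share only a number: their deviations correlated at 0.01 over 1690 genes. Of the genes named in the sex comparison, Wfdc21 changed sign, to -0.25, among granule-low cells, and 45 other values over the alternatives kept their direction but passed no threshold. With 2 to 9 granule-high cells a library, a gene needs high expression to reach 10 UMIs, so lower-expressed differences were not detectable at this depth.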
